A study of Mus musculus with 2 samples.

Results

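NOTCH signalling was described in cultured mouse neural stem cells through 10 genes: the ligand genes Dll1, Dll3 and Jag1, the receptor genes Notch1, Notch2 and Notch3, the fringe glycosyltransferase gene Mfng, and the target genes Hes1, Hes5 and Nrarp. The members were chosen by name, and all 10 were found by gene symbol among the 15953 genes of the deposited expression table. Each of them also passed the filter of 1 CPM (reads per 1000000 reads counted) in at least 1 library, which 12618 genes passed. The cells were neural stem cells kept in suspension culture, and the series holds total RNA libraries of 2 labels, wild type (1 library) and Hikeshi conditional knockout (cKO, 1 library). Hikeshi imports HSP70 chaperones into the nucleus. The Cre driver, the deleted part of the gene, the strain, the age and the number of animals behind each library are not stated in the sources at hand. With 1 library per label there was no replicate, so genotypes could not be tested against each other and p-values are left out.

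NOTCH proteins are receptors that span the cell membrane and are bound by ligands of the Delta-like and Jagged families on neighbouring cells. Binding leads to cleavage by the ADAM10 protease and then by gamma-secretase, and the freed intracellular domain enters the nucleus, joins the DNA-binding protein RBPJ and a Mastermind coactivator, and switches on genes such as Hes1, Hes5, Hey1 and Nrarp. In the developing brain the HES repressors hold back proneural genes and keep progenitors undifferentiated, while cells that express more Delta-like ligand go on to differentiate.

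RefSeq windows around the start site were matched for 8 of the 10 members (9 windows, GRCm38.p6). Hes1 and Mfng had no entry. Each window runs from 250 bases before the start site to 50 after it. The windows were searched on both strands for the RBPJ core TGGGAA (reverse TTCCCA), its longer form GTGGGAA, which contains the core, and the N box CACNAG, a HES binding sequence. The stretches before the start site are shown for the targets Hes5 and Nrarp, which differed most between the libraries among the targets, and for the ligands Dll3 and Jag1, which differed in opposite directions. Capitals mark the RBPJ core.
Hes5, chr4:154960673-154960922, plus strand: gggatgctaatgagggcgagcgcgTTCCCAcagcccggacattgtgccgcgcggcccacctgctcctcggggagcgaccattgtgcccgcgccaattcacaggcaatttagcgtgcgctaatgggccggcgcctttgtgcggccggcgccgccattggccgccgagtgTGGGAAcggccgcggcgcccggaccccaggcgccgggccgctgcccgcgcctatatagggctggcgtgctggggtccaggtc
Nrarp, chr2:25180508-25180757, plus strand: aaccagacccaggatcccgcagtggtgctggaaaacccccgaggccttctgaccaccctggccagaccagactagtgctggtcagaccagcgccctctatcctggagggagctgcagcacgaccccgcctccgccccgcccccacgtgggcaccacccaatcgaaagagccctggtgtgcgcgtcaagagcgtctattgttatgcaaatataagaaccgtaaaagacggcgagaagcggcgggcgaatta
Dll3, chr7:28301786-28302035, minus strand: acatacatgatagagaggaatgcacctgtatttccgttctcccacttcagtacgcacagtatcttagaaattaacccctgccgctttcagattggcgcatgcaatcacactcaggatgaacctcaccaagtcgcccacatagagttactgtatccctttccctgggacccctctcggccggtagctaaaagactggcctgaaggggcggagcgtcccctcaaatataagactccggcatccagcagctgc
Jag1, chr2:137116521-137116770, minus strand: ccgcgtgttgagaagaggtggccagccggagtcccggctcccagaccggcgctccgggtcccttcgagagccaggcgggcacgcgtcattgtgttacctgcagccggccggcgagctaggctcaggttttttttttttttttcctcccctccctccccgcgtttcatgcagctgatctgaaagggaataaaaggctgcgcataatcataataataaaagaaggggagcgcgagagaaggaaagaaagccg
The RBPJ core was found in 1 of the 9 windows, that of Hes5, where it occurred 2 times in opposite orientations, starting at positions -226 and -82 from the start site. Both matches were also matches of the longer form. The RefSeq gene record of Hes5 begins at 154960626, before this window, so these positions hold for the start site used here and the matches lie within the annotated gene. Of all 32851 windows of the same length 25.56% held the core and 6.383% the longer form. Nrarp had no core and 2 N boxes, starting at -179 and -79, a sequence held by 42.48% of all windows. Dll3 and Jag1 held neither sequence in this window. Such matches are a description of letters and were not tested as binding sites.

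The libraries held 18912683 reads (cKO) and 18839079 reads (wild type). Hikeshi itself had 640 reads (cKO) and 718 reads (wild type), a ratio of 0.888, so whole-gene counts do not settle the genotype and every direction below is between the labelled libraries. The Y-linked genes Eif2s3y, Ddx3y and Kdm5d had 515 to 1265 reads in cKO but 0 in wild type. Uty, also Y-linked, had 305 reads in cKO and 1 in wild type. Reads of Y-linked genes come from male cells, so the libraries appear to differ in sex as well as in genotype label. The genotype label and this difference in the source of the cells cannot be told apart. Markers of neural stem cells were present in both libraries, with summed levels of 7349 (cKO) and 6024 CPM (wild type) over 9 genes. The filament gene Vim made the sum higher in cKO (4578 against 2716 CPM), and without it the sum was 2771 and 3308 CPM. Of the 9 genes 1 (Vim) was at least 1.5-fold higher and 3 (Prom1, Sox9 and Fabp7) were at least 1.5-fold lower, with a median log2 difference of -0.14. Among all 12618 genes that passed the filter, 4.22% were higher and 10.2% lower by that size. Nes, which encodes the progenitor filament nestin, stood at 780.4 and 568.9 CPM, and Sox2 at 403.6 and 406.5 CPM.

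Of the 10 members, 5 were lower by at least 1.5-fold in the library labelled cKO (Nrarp, Dll3, Hes5, Mfng and Notch3) and 1 was at least 1.5-fold higher (Jag1), while Dll1, Notch1, Notch2 and Hes1 lay within 1.5-fold. Among all 12618 genes kept, 10.2% were at least 1.5-fold lower and 4.22% at least 1.5-fold higher. The same 6 members were also past 2-fold, a size reached by 3.85% of all genes in the lower and 1.25% in the higher direction. These differences are log2 ratios of CPM after adding 1 CPM to each value, and the median over the members was -0.73 against -0.02 over all genes kept. The members were picked with earlier results of these libraries known, so nothing is read from their share against that of all genes. Folds below are ratios of CPM with nothing added, and each carries a 95% exact conditional binomial interval that covers counting error only.

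**Figure D1:**
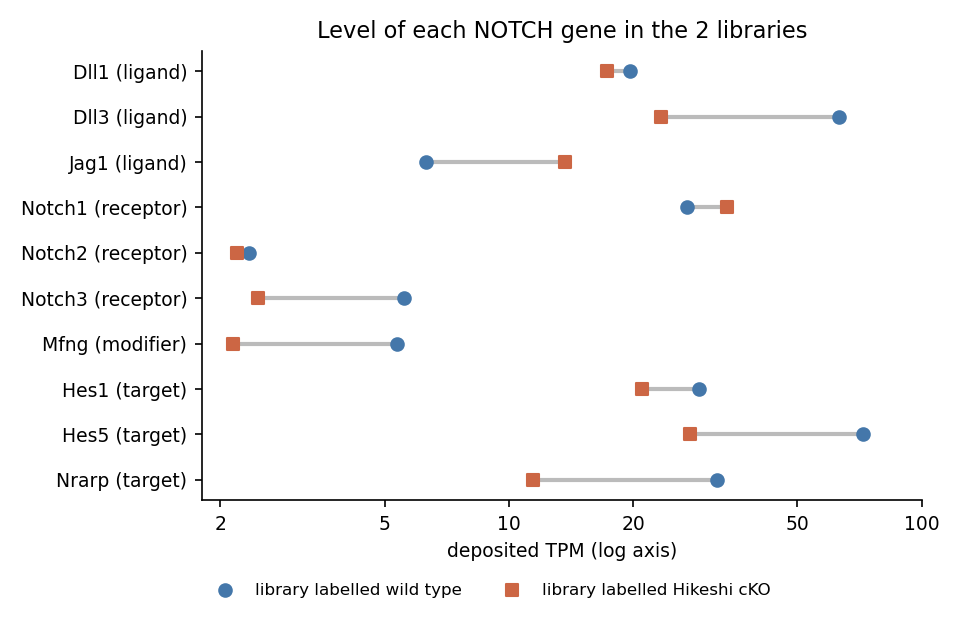
Deposited TPM of each member on a log axis in the library labelled wild type (circles) and in the library labelled Hikeshi cKO (squares), joined by a grey line. Hes5 led in wild type at 71.88 TPM and Notch1 in cKO at 33.7 TPM, and Jag1 and Notch1 are the members whose square lies to the right of the circle.

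Levels of different genes were set side by side in TPM, which is scaled to gene length. In the library labelled wild type the order ran from Hes5 (71.88 TPM) and Dll3 (62.92) through Nrarp (31.99), Hes1 (28.85), Notch1 (26.93) and Dll1 (19.63) to Jag1 (6.31), Notch3 (5.57), Mfng (5.35) and Notch2 (2.35). In the library labelled cKO it ran from Notch1 (33.7 TPM), Hes5 (27.49), Dll3 (23.4) and Hes1 (21.03) through Dll1 (17.3), Jag1 (13.69) and Nrarp (11.42) to Notch3 (2.46), Notch2 (2.19) and Mfng (2.15). Notch1 thus moved from place 5 to place 1 and Nrarp from place 3 to place 7. With 1 library per label there is no spread against which neighbours in either order could be judged.

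The ligand genes went in different directions. Dll3 encodes a divergent Delta-like protein that mostly stays inside the cell and does not activate NOTCH on neighbouring cells, and it is expressed in cells that are starting to differentiate. Dll3 (Entrez 13389, chromosome 7, 28293555 to 28301785, minus strand) had 505 reads in cKO and 1355 in wild type, or 26.7 and 71.9 CPM. That is 2.69-fold lower in cKO (interval 2.43 to 2.99). Jag1, a Jagged-family ligand (Entrez 16449, chromosome 2, 137081451 to 137116520, minus strand), had 828 reads against 382, or 43.8 and 20.3 CPM. It was 2.16-fold higher in cKO (1.91 to 2.44) and the only member past 1.5-fold in that direction. Dll1, the Delta-like ligand that activates NOTCH between neighbouring progenitors (Entrez 13388, chromosome 17, 15367354 to 15376932, minus strand), had 642 reads against 730, or 33.9 and 38.7 CPM. Its ratio of 0.876 (0.787 to 0.975) was far smaller in size than those of the other ligands.

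The makeup of the ligand transcripts therefore differed between the libraries. Over the 5 genes of the Delta-like and Jagged ligands, the summed level was 56.46 TPM in cKO and 90.04 TPM in wild type. Dll3 made up 69.9% of that sum in wild type and 41.4% in cKO. Jag1 made up 7.01% and 24.2%, and Dll1 21.8% and 30.6%, in the same order of libraries. Dll3 made the sum lower in cKO, at 23.4 TPM against 62.92 TPM in wild type. Of the other ligand genes Dll1 was lower in cKO (17.3 against 19.63 TPM). Jag1 (13.69 against 6.31 TPM), Jag2 (1.7 against 0.99) and Dll4 (0.37 against 0.19) were higher. The level of Dll3 was 9.97 times that of Jag1 in wild type and 1.71 times in cKO, both by TPM. Jag2, the other Jagged gene, had 90 reads in cKO against 54 in wild type, a ratio of 1.66 (1.17 to 2.37), but it lay just inside 1.5-fold after 1 CPM was added (log2 difference 0.57). Dll4, which marks endothelial tip cells, was near its detection limit with 11 reads against 6.

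**Figure D2:**
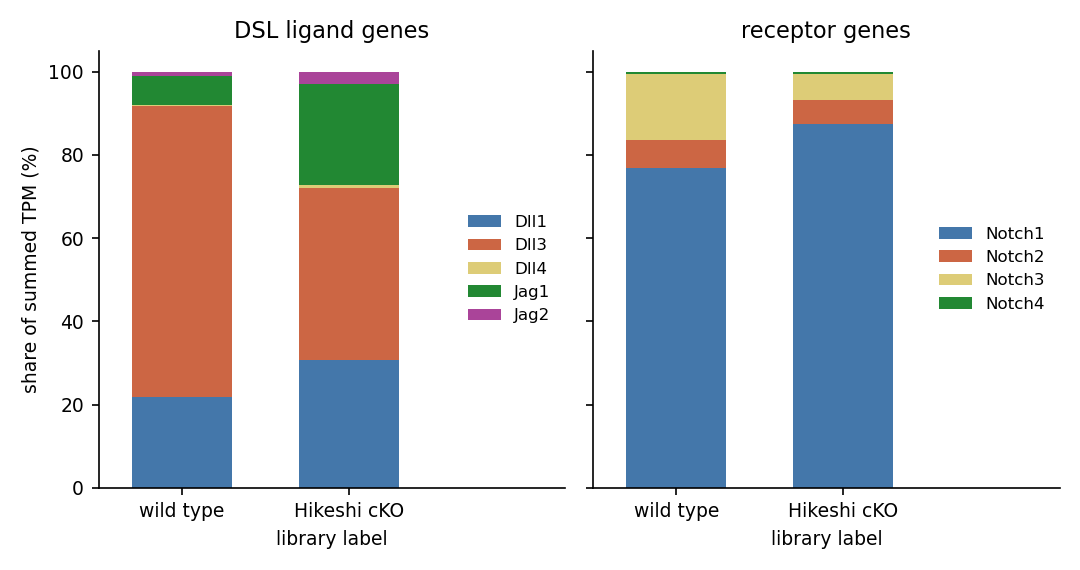
Share of summed deposited TPM held by each Delta-like or Jagged ligand gene (left) and each receptor gene (right), in percent, in the library labelled wild type and the library labelled Hikeshi cKO. Dll3 fills 69.9% of the wild-type ligand bar and 41.4% of the cKO bar, and Notch1 fills 76.8% and 87.4% of the receptor bars.

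Among the receptors, Notch1 and Notch3 differed in opposite directions. Notch1, the main receptor of neural progenitors (Entrez 18128, chromosome 2, 26457902 to 26503822, minus strand), had 3597 reads in cKO and 2879 in wild type, or 190.2 and 152.8 CPM. It was the most deeply read member, and its ratio of 1.24 (1.18 to 1.31) has the narrowest interval. Notch2 (Entrez 18129, chromosome 3, 98013538 to 98150367, plus strand), a receptor linked to quiescence of neural stem cells, had 260 reads against 279, or 13.7 and 14.8 CPM. Its ratio of 0.928 has an interval of 0.781 to 1.103 that includes 1, so a difference of Notch2 was not detectable at this depth. Notch3 (Entrez 18131, chromosome 17, 32120820 to 32166896, minus strand), which is also the receptor of pericytes and vascular smooth muscle, had 222 reads against 502, or 11.7 and 26.6 CPM. It was 2.27-fold lower in cKO (1.93 to 2.67).

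Because Notch1 dominates, the summed receptor level differed little, at 38.57 TPM in cKO and 35.06 TPM in wild type over Notch1 to Notch4. Notch1 supplied 87.4% of it in cKO and 76.8% in wild type, and Notch3 6.38% and 15.9%. Notch4, the endothelial receptor, had 16 reads against 15 and stayed below the filter. Markers of pericytes and smooth muscle were low and did not all move with Notch3. Of 10 such genes 5 passed the filter, 3 of them at least 1.5-fold lower and 0 higher in cKO. The shares among all genes kept were 10.2% lower and 4.22% higher. The summed level of the 10 was 17.2 CPM in cKO and 26.9 CPM in wild type. Acta2 went the other way, with 121 reads in cKO against 77 in wild type, a ratio of 1.57 (1.17 to 2.11). It lay within 1.5-fold after 1 CPM was added (log2 difference 0.54). Pdgfrb, the growth factor receptor of pericytes, had 41 reads against 84 and was 2.06-fold lower (1.40 to 3.07), and Myl9 had 89 against 194. Rgs5 had 14 reads against 30, with a log2 difference of -0.58, just inside 1.5-fold. Kcnj8 (1 read against 3), Abcc9 (1 against 0) and Vtn (0 against 3) were at or near 0 in both libraries. The part of such cells in the level of Notch3 was not tested.

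Mfng encodes Manic fringe, a Golgi enzyme that adds a sugar to NOTCH and so alters which ligands it answers to. Mfng (Entrez 17305, chromosome 15, 78755882 to 78773516, minus strand) was the member with the fewest reads, 36 in cKO and 94 in wild type, or 1.90 and 4.99 CPM. It was 2.62-fold lower in cKO with a wide interval (1.77 to 3.96). The call rests on the value added before taking the log: with 5 CPM in place of 1 the log2 difference was -0.53, inside 1.5-fold. The other fringe genes were far higher and nearly level. Lfng (Lunatic fringe) had 3054 reads against 3076 (ratio 0.989, 0.940 to 1.04) and Rfng (Radical fringe) 719 against 794 (0.902, 0.814 to 0.999). Mfng supplied 1.27% of summed fringe TPM in cKO and 3.01% in wild type, so the sum over the fringe genes was 169.4 and 177.5 TPM.

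All 3 targets were lower in cKO, by unequal amounts. Nrarp encodes a small ankyrin-repeat protein that binds the NOTCH complex and promotes its loss, a feedback inhibitor. Nrarp (Entrez 67122, chromosome 2, 25180758 to 25183339, plus strand) is a gene of 1 exon and had 302 reads in cKO and 845 in wild type, or 16.0 and 44.9 CPM. It was 2.81-fold lower (2.46 to 3.21), the largest difference among the members. Hes5, a HES repressor that depends closely on NOTCH in neural progenitors (Entrez 15208, chromosome 4, 154960626 to 154962372, plus strand), had 317 reads against 810, or 16.8 and 43.0 CPM. It was 2.57-fold lower (2.25 to 2.93). Hes1, a related repressor that other signals also induce (Entrez 15205, chromosome 16, 30065357 to 30067796, plus strand), had 277 reads against 372, or 14.6 and 19.7 CPM. Its ratio of 0.742, or 1.35-fold lower, does not reach 1.5-fold. The interval (0.633 to 0.869) excludes 1 and, at up to 1.58-fold lower, extends past 1.5-fold. The interval of Hes1 does not overlap those of Hes5 (0.341 to 0.444) and Nrarp (0.311 to 0.406), so Hes1 differed less than either by more than counting error within this pair of libraries. The intervals of Hes5 and Nrarp overlap.

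**Figure D3:**
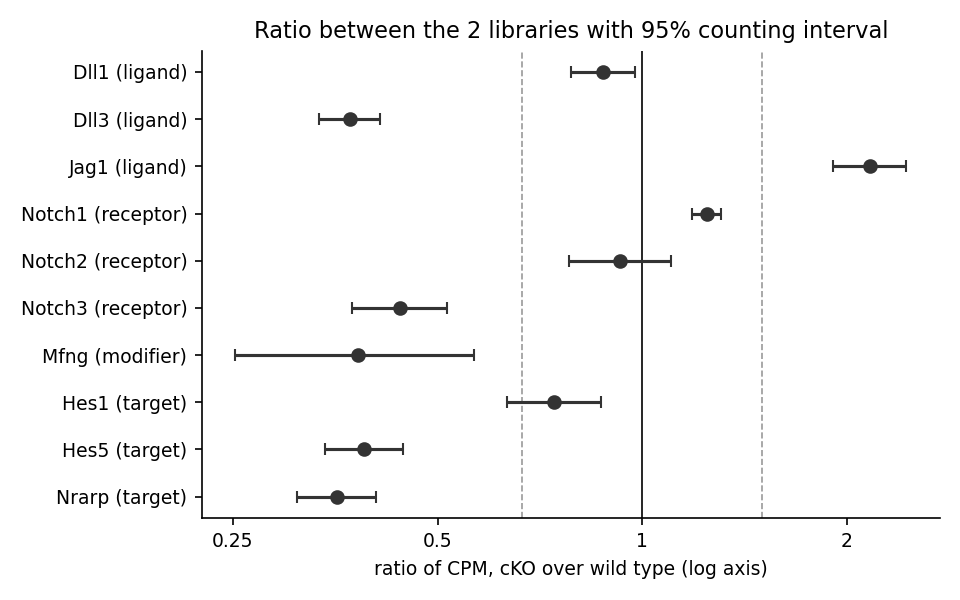
Ratio of CPM, cKO over wild type, for each member on a log axis, with bars for the 95% counting interval. The solid line marks a ratio of 1 and the dashed lines 1.5-fold in either direction. The whole interval lies below the lower dashed line for 5 members (Dll3, Notch3, Mfng, Hes5 and Nrarp) and crosses the solid line only for Notch2.

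Set against the main receptor, the targets and Dll3 were lower while Notch1 was higher. By TPM, Nrarp stood at 1.19 times Notch1 in wild type and 0.339 times in cKO, and Hes5 at 2.67 and 0.816 times. Hes5 stood at 2.49 times Hes1 in wild type and 1.31 times in cKO. Of 7 other bHLH genes of the HES and HEY families, not all of them NOTCH targets, 5 were listed and 3 passed the filter. Hey1, the HEY-family target of progenitors, had 700 reads against 1228 and was 1.76-fold lower in cKO (1.60 to 1.94). Hey2 (27 reads against 33) and Hes6 (1203 against 1337), a HES family member that antagonises HES1, lay within 1.5-fold with log2 differences of -0.18 and -0.16. Heyl, with 4 reads against 6, was below the filter. Insm1, a gene of the proneural list, had 106 against 67 (1.58, 1.15 to 2.17) and a log2 difference of 0.54, within 1.5-fold.

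The rest of the pathway was read from a list of 70 other genes, of which 68 were listed and 64 passed the filter. In it 5 genes (7.81%) were at least 1.5-fold lower in cKO and 1 (1.56%) at least 1.5-fold higher, against 10.2% and 4.22% of all genes kept. The median was 0.00 on the log2 scale, and 0 genes reached 2-fold. The lower ones were Hey1, the ubiquitin ligase gene Dtx1 (Deltex, 1.52-fold, 1.41 to 1.64), the presenilin gene Psen2 (1.68-fold, 1.29 to 2.20), the corepressor gene Bend6 (1.77-fold, 1.40 to 2.25) and the noncanonical ligand gene Dlk1 (1.59-fold, 1.25 to 2.02). The higher one was L3mbtl3, which encodes a partner of RBPJ in repression (1.54-fold, 1.40 to 1.68).

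Few genes that process and transduce the signal passed 1.5-fold, a size by which 14.4% of all genes kept were apart. The lists are short, so nothing is read from their small counts. Of 10 genes of receptor proteolysis only Psen2 passed 1.5-fold. Adam10, the protease of the first activating cut, was 1.31-fold higher in cKO (1.25 to 1.38). The gamma-secretase genes Ncstn (ratio 1.17, 1.10 to 1.24) and Psenen (0.921, 0.849 to 0.998) differed by little. Of 9 nuclear activation genes 0 were 1.5-fold apart, with Rbpj 1.30-fold higher (1.21 to 1.39) and the coactivator Maml1 at a ratio of 1.02 (0.905 to 1.14). Of 7 glycosylation genes and 6 genes of ligand endocytosis likewise 0 were, although the xylosyltransferase gene Gxylt2, with 31 reads against 15, had a ratio of CPM of 2.06 (1.08 to 4.10) before 1 CPM was added. Of 15 nuclear repression genes 1 was lower (Bend6) and 1 higher (L3mbtl3) by 1.5-fold. Among 11 genes of inhibition and turnover Dtx1 was the 1 past the threshold, and Numb, the classic NOTCH antagonist, had a ratio of 1.09 (0.934 to 1.28).

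**Figure D4:**
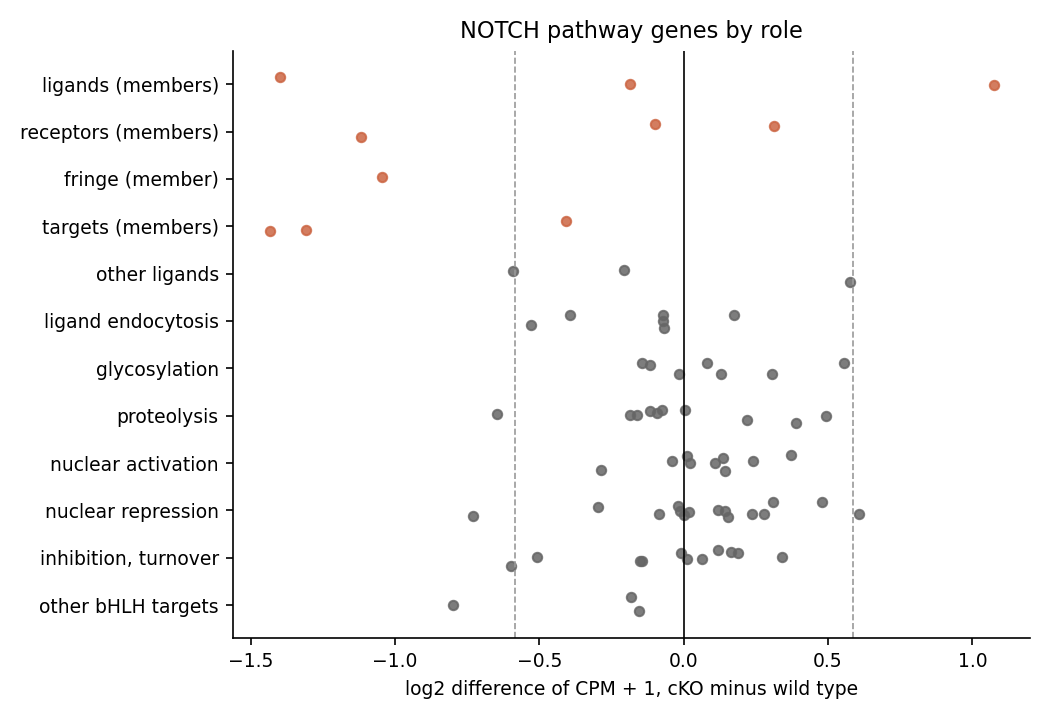
Difference in log2(CPM + 1), cKO minus wild type, for each member (orange, by role) and each other pathway gene that passed the filter (grey, by role). Points are spread vertically only for legibility. The solid line marks no difference and the dashed lines 1.5-fold. Of the members 6 of 10 lie outside the dashed lines, and of the other genes 6 of 64, beside 14.4% of all genes kept. The members were picked with earlier results of these libraries known, so nothing is read from their share.

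Markers of differentiating glia moved with the lower members. Of 21 oligodendrocyte lineage markers 18 passed the filter, 13 of them at least 1.5-fold lower and 0 higher in cKO. Among all genes kept 10.2% were lower and 4.22% higher by that size. In lists this short a count of 0 higher is near the latter share. The summed level of the 21 markers was 2730 CPM in cKO and 4288 CPM in wild type. Large parts of both sums came from Olig1 (1401 CPM in cKO, 1468 in wild type) and Olig2 (787 and 848 CPM), which were nearly level. Pdgfra, the first marker of the list, was 7.42-fold lower in cKO (6.68 to 8.26). Mobp, a late myelin gene, had 0 reads in cKO and 6 in wild type. Of 14 astrocyte markers 13 were lower and 0 higher by at least 1.5-fold, with summed levels of 3305 and 6462 CPM and no marker at 0. Clu went the other way, with a ratio of 1.42 (1.35 to 1.49). Of 10 neuronal markers 9 passed the filter, 3 lower and 0 higher by at least 1.5-fold, with summed levels of 599.5 and 755.5 CPM. Most of both sums came from Map2 (495.0 CPM in cKO, 579.1 in wild type). Dcx, the first marker of the list, had 80 reads against 824 and was 10.3-fold lower (8.21 to 13.2). By log2 difference 7 of the 9 were below 0 and 2 above. Endothelial markers were sparse, with summed levels of 8.46 and 9.55 CPM, and so were microglial ones, with 5.08 and 3.34 CPM, where Cx3cr1 and Csf1r had 0 reads in cKO and Tmem119 had 0 in wild type. The part of these cell type differences in the levels of the NOTCH genes was not tested. In bulk RNA, fewer cells of a type and less RNA per cell cannot be told apart.

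GC content also moved with the differences. The median log2 difference of all genes was 0.12 in the 10% of genes with the lowest transcript GC and -0.09 in the 10% with the highest. Of the members 8 of 10, the 5 lower ones among them, lie in the 3 groups of highest GC among 10 of equal size, where 13.1%, 12.8% and 14.1% of all genes were at least 1.5-fold lower. With that trend removed, the log2 differences were -1.32 for Dll3, -1.23 for Hes5, -1.39 for Nrarp, -1.05 for Notch3, -0.99 for Mfng and 1.07 for Jag1. A trend of this size, from 0.12 to -0.09, could not have brought any of the 6 inside 1.5-fold. The part of GC content in these differences was not tested.

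**Figure D5:**
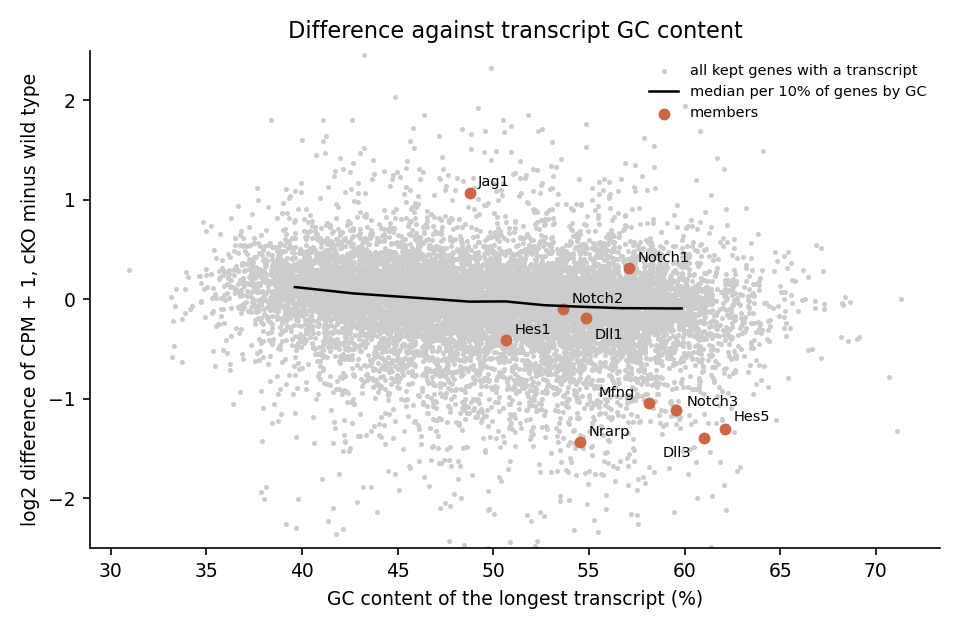
Difference in log2(CPM + 1), cKO minus wild type, against GC content of the longest transcript in percent, for 12456 genes (grey) and the 10 members (orange, named). The black line joins the medians of 10 equal groups by GC, from 0.12 to -0.09, and 45 genes beyond 2.5 in either direction are outside the plot.

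Gene structure and neighbours bear on some of these counts. The sources at hand do not state the strand setting of the counting, and GENCODE M21 places a gene on the opposite strand over 79.4% of the exon bases of Nrarp (Gm38287), 31.8% of those of Hes5 (Gm20421) and 20.6% of those of Dll1 (A930024N18Rik). Over Notch3 the share is 6.03% (Gm17276), and over Notch1 the larger of 2 such genes takes 7.50% (0610009E02Rik). None of these opposite genes is listed in the table, so the values of Nrarp and Hes5 in particular may include their reads. Over Notch2 a gene on the same strand, Gm42820, takes 5.02% of the exon bases and is not listed either. Dll3, Jag1, Mfng and Hes1 have no overlapping gene in that annotation. The transcript length implied by reads and FPKM was nearly equal in the libraries, with ratios of 0.957 (Mfng) to 1.03 (Hes5) over the members, within the central range of 0.956 to 1.06 that held 95% of 11177 genes of at least 1 FPKM in both.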

How the data were processed

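Total RNA from neural stem cells in suspension culture was sequenced in 1 library per genotype label. Per the labels' protocols the libraries were made with standard Illumina methods. The submitters' processing notes name the genome build GRCm38.p6. For the aligner, counting tool and strand setting, a name was not given in the sources used here. Per the file headers, the authors deposited an estimated count of reads, TPM, FPKM and a normalized read count, a signal equal to the count rounded up times 1 constant per library (1.0026 in cKO, 0.9974 in wild type).

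Estimated counts were rounded to whole reads and divided by the column totals to give CPM. Genes reaching 1 CPM in at least 1 library were kept, 1 CPM was added before taking log2, and 1.5-fold was the threshold. Intervals are exact conditional binomial (Clopper-Pearson, 95%). Without molecular identifiers, reads are not independent molecules, and intervals cover counting error at most. The interval code was tested on simulated data. Coordinates came from RefSeq GRCm38.p6, matched by Entrez number. GC content was that of the longest GENCODE M21 transcript, available for 12456 of 12618 genes. The members and gene lists were chosen with earlier results of these data known. Named genes were all members, other pathway and proneural genes past 1.5-fold, a fixed set of core pathway genes given whatever their values (Rbpj, Adam10, Lfng, Hey2, Jag2 and others), and leading markers. Insm1, Gxylt2, and the markers of each list named after its leading ones, were chosen after their values were seen. A few genes of the fixed set are not reported here. Alternatives were TMM (edgeR 4.0.16) and DESeq2 1.42.0 size factors, the deposited normalized count and TPM, other added values, filters and totals, and removal of GC or length trends (lowess, statsmodels 0.14.6). Python 3.11.15, scipy 1.17.1 and R 4.3.3 were used.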

Additional observations from a re-analysis of the deposited data

How the results depend on the processing

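No paired analysis was possible because each label has 1 library. The count of members at least 1.5-fold lower (5 in the report) and higher (1) stayed within 1.5 times under all 12 alternatives tried, and no member changed sign under any alternative. Mfng was the only member whose side of the 1.5-fold threshold changed, at -0.53 with 5 CPM added, and it did not pass the filter at 5 CPM. The ranges over alternatives were -1.42 to -1.28 for Dll3, 0.95 to 1.10 for Jag1, -1.17 to -0.92 for Notch3, -1.36 to -1.14 for Hes5 and -1.48 to -1.25 for Nrarp. The median over the members (-0.73) was -0.43 with 5 CPM added and -0.41 with the filter at 5 CPM, where 9 members were left. For the other pathway genes the count of lower genes (5) was 3 with TMM factors, with deposited TPM and with the GC trend removed, 1 with 5 CPM added and 0 at a 2-fold threshold. The count of higher genes (1) was 2 with TMM factors, DESeq2 size factors or the authors' normalized counts, 3 with 0.25 CPM added, 3 with totals that leave out the 100 most abundant genes, 0 with 5 CPM added and 0 at a 2-fold threshold. A larger added value shrinks the difference of low genes by construction. Otherwise the cause was not tested. Depth limits Mfng most, and Dll4, Notch4 and Heyl were too low to compare.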

Other observations

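The genes next to the members on the chromosome were also read. Of the 20 nearest listed genes, 1 on each side of each member, 13 passed the filter, 0 were lower by at least 1.5-fold in cKO and 2 were higher, with a median log2 difference of -0.03. Among all genes kept 10.2% were lower and 4.22% higher by that size. Card10 encodes a CARD-domain scaffold protein, and its gene record lies 1606 bases from that of Mfng, at higher coordinates. It had 43 reads in cKO against 6 in wild type, a ratio of 7.14 (3.03 to 20.5), while Mfng was lower. The other was Tor4a, near Nrarp, with 35 reads against 16 and a log2 difference of 0.62. Pank4, which lies 1750 bases beyond Hes5, had 628 reads against 540, and Slx4ip, 99 bases from Jag1, had 196 against 232. These neighbours were named after their values were seen.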
